A study of Mus musculus with 288 samples.

Results

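Purine salvage and synthesis genes, 10 of the 54232 rows in the deposited count table, were examined in single mouse embryonic stem cells, and 29240 of those rows had a read in a cell that was used. They were selected by name as the salvage and synthesis enzymes around Hprt, which was itself chosen because earlier results of these data showed it nearly absent under 2 of the 3 time labels and present under the other. The pattern of Hprt across labels is therefore a description here and supports nothing. The members are Hprt and Aprt (salvage), Ppat, Gart, Pfas, Paics, Adsl and Atic (de novo synthesis), and Impdh1 and Impdh2 (the guanine branch).

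Cells obtain purine nucleotides along a pair of routes. Salvage enzymes attach a free base to phosphoribosyl pyrophosphate (PRPP), Hprt using hypoxanthine and guanine and Aprt using adenine. De novo synthesis builds the ring stepwise on the same PRPP until inosine monophosphate (IMP) is formed, and IMP is then turned into AMP or GMP. Rapidly dividing cells such as embryonic stem cells draw on both routes. Loss of Hprt is tolerated in culture and is the basis of selection with 6-thioguanine and HAT medium.

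The cells were labelled as the line E14 of strain 129/Ola throughout. All were first grown in serum-free medium with inhibitors of MEK1/2 and GSK3 and with leukaemia inhibitory factor (2i). The D0 cells were 2i cells, and the D1 and D2 cells were moved to serum with the same factor. D0 was taken at 0 h, D1 at 24 h and D2 at 48 h after the change, with 96 wells of polyadenylated RNA from scNMT-seq under each label. Each label was 1 culture as far as the sources show, so cells are not replicates, no test between labels was made, and culture, plate and time cannot be told apart. The subline E14TG2a is known to lack Hprt, and the methods name E14 and cite for its derivation a report on mouse embryos without HPRT. Neither the labels nor the methods give an Hprt genotype for the cells used.

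A cell was used if it had more than 200000 reads on genes, more than 2000 genes and under 15% mitochondrial reads, which left 90 cells of D0, 50 of D1 and 93 of D2. The shallowest D1 cell used had 202157 reads, and the deepest D1 well left out had 124454. The D0, D1 and D2 cells had median depths of 1610758.5, 7956161.5 and 2162090 reads and a median of 9002, 10676 and 4744 genes detected. With every cell thinned to 200000 reads the medians were 7810, 8058.5 and 3974 genes, so the D2 cells held fewer detected genes at equal depth. All 8 pluripotent markers were read in 50% or more of the cells under every label. The summed level of those markers lay between 896.6 and 16087 CPM (counts scaled to a common total of reads on genes per cell) in D0, 2389 and 15093 in D1, and 3492 and 52489 in D2. None of the 8 fibroblast, 6 primitive endoderm, 4 mesoderm or 5 2-cell-like markers reached that share over all cells of a label, though some did among the few D0 and D2 cells with an Hprt read, as given with those cells. Of 6 trophectoderm markers 2 reached it in D0, Krt8 and Tfap2c, and none in D1 or D2, and of 4 ectoderm markers 1 reached it in D1 only. The median of the summed trophectoderm markers was 59.4 CPM in D0, 6.42 in D1 and 0 in D2.

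The D1 libraries stood apart in genes outside the pathway. Reads of 4 genes on chromosome Y (Eif2s3y, Ddx3y, Uty and Kdm5d) were found in 47 of the 48 D1 cells with an Hprt read, with a mean of 261.9 CPM over the 4 genes. They were found in 2 of the 81 D0 cells and 4 of the 86 D2 cells without one. Ftl2, a near copy of the ferritin light chain gene Ftl1, took a median of 63.7% of the reads of the 2 genes in those D0 cells and 66.04% in those D2 cells, but 0.394% in the D1 cells with an Hprt read. Because the copies are so alike, the split between Ftl1 and Ftl2 is uncertain in level. The label thus moved together with Hprt, the Y-linked genes and the ferritin copies at once, and in the comparisons of D1 with D0 and D2, time and the source of the D1 cells cannot be told apart.

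Promoter sequences were available for 9 of the 10 members in RefSeq (GRCm38.p6), each running from 250 bases before to 50 after the annotated start. They are shown for Hprt, whose transcript sets the groups compared below, and for the 3 members that hold a CACGTG E-box, the letters bound by MYC-family factors, printed in capitals. In Paics the box began 203 bases before the start, in Atic 7 and in Impdh2 110.
Hprt (chromosome X, 52987828 to 52988127, plus strand): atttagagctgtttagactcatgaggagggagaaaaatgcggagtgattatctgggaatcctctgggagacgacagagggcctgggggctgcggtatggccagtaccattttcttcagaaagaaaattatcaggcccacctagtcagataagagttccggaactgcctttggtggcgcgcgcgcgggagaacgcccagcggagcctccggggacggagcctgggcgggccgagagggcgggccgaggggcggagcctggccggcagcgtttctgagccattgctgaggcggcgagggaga
Paics (chromosome 5, 76951052 to 76951351, plus strand): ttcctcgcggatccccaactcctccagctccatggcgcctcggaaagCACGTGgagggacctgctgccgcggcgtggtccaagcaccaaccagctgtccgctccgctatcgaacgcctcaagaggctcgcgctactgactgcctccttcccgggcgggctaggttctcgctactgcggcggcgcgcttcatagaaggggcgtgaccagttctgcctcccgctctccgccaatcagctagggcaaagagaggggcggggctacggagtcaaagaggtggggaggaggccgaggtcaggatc
Atic (chromosome 1, 71556906 to 71557205, plus strand): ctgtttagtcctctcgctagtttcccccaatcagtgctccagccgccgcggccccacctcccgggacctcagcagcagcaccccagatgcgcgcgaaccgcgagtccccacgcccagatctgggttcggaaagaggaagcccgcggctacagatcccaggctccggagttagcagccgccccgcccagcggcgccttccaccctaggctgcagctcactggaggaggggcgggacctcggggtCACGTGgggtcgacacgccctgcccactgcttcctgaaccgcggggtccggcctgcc
Impdh2 (chromosome 9, 108560186 to 108560485, plus strand): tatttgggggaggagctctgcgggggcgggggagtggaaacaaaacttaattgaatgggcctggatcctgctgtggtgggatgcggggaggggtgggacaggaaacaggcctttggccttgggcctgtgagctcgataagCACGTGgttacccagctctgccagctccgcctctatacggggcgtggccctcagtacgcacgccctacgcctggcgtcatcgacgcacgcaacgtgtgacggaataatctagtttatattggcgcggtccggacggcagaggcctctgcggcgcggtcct

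The letters CACGTG read the same on both strands and occurred in 7.15% of 32851 promoter windows of that table. A GC box, GGGCGG on either strand, occurred in 35.7% of the windows and in every window of the 9 members, with 3 copies in Hprt, 3 in Aprt and in Atic, and 1 in Gart and in Impdh2. These matches describe the windows and say nothing about the factors that bind there. Ppat and Paics face away from each other on chromosome 5, and their annotated genes share 272 bases at their 5′ ends (76951307 to 76951578). Whether strand was used in counting is not given in the sources used here, so reads in the shared stretch cannot be assigned to either.

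Hprt, which returns hypoxanthine and guanine to IMP and GMP, is annotated on the plus strand of chromosome X from 52988137 to 53021659 (GRCm38, GENCODE M21). It was read in 9 of 90 D0 cells, 48 of 50 D1 cells and 7 of 93 D2 cells. These are shares of 10% (95% exact Clopper-Pearson interval 4.68 to 18.1), 96% (86.3 to 99.5) and 7.53% (3.08 to 14.9), with intervals that cover counting error only. The lowest, median and highest level was 0, 0 and 54.1 CPM in D0, 0, 179.6 and 633.1 CPM in D1, and 0, 0 and 118.3 CPM in D2. The mean was 3.08 ± 10.9 CPM (SD between cells, n = 90) in D0, 207 ± 141 (n = 50) in D1 and 2.68 ± 13.8 (n = 93) in D2. Among the D1 cells with a read the lowest level was 18.7 CPM, from 104 Hprt reads in well C10. The lowest number of Hprt reads was 18, in another cell, well C04. The D1 cells therefore formed a nearly continuous range above 0 apart from 2 cells, and most D0 and D2 cells had no read at all. The mean in D1 was 67.2 times that in D0 and 77.2 times that in D2.

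**Figure D1:**
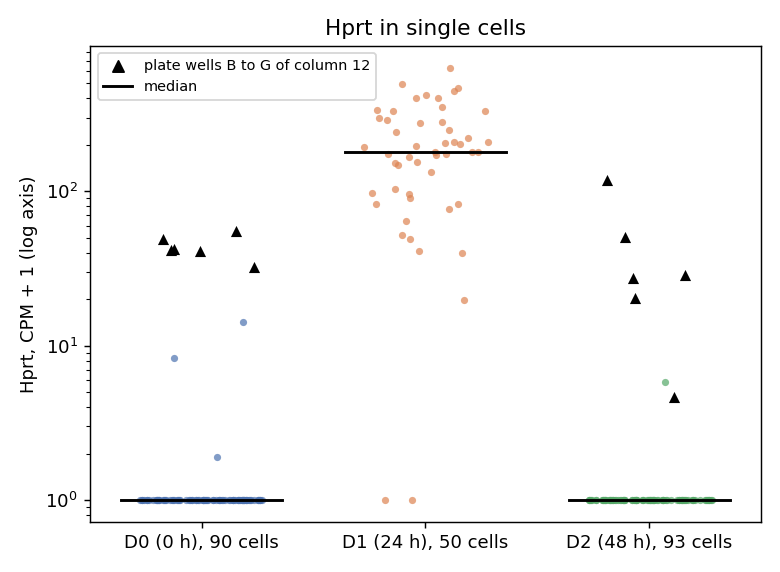
Each point is 1 cell, with Hprt in CPM + 1 on a log axis for the 90 D0, 50 D1 and 93 D2 cells; bars are medians and black triangles are cells from plate wells B to G of column 12. The D1 median is 179.6 CPM, the D0 and D2 medians are 0, and the 6 triangles in D0 and 6 in D2 hold most of the cells with a read there.

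The Hprt reads of D0 and D2 were not spread over the plates. In wells B to G of column 12, 6 of 6 D0 cells and 6 of 6 D2 cells had a read, with means of 42.7 and 40.8 CPM. In columns 1 to 10 a read was found in 1 of 74 D0 cells, well H01 at 13.2 CPM, and in 0 of 78 D2 cells, which allows a share of up to 4.62%. Column 11 gave 2 of 8 D0 cells, B11 at 7.35 CPM and C11 at 0.907 CPM, and 1 of 7 D2 cells, B11 at 4.78 CPM. The end wells A12 and H12 had none in either label. Wells B12 to G12 and B11 thus held a read on both plates, and every level was below the D1 median. Without wells B12 to G12 the mean of Hprt was 0.256 CPM in D0 and 0.055 CPM in D2, and the log2 ratio of D1 to D0, 6.07 with all cells, was 9.66.

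The D0 levels in column 12 were close together, from 31.4 CPM in G12 to 54.1 in C12. In D2 they ran from 3.64 CPM in B12 through 19.5 in C12, 26.5 in E12, 27.5 in F12 and 49.4 in D12 to 118.3 in G12. On the D1 plate, wells B12 to G12 all failed the filter, with 141 to 10662 reads and no Hprt read. In these 6 wells the Ftl2 share of ferritin reads had a median of 54.4% in D0, against 63.7% in columns 1 to 10, and 61.99% in D2 against 66.04%. Genes detected after thinning had a median of 8258.5 in the D0 wells against 7757.5, and of 5558 in the D2 wells against 3889. A Y-linked read was present in 1 of the 6 wells on each plate, D12 in both, with 56 reads in D0 and 24 in D2. Gc and Dok2 were 2 of the 5 genes whose levels ran most like Hprt over all cells, the 2 of them with an established symbol. Gc had reads only in the D0 well B12 (4 reads) and Dok2 only in the D0 well C12 (32) and the D2 wells C12 (20) and B11 (16) among the 16 D0 and D2 cells with an Hprt read. The part of plate position in these reads was not tested.

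**Figure D2:**
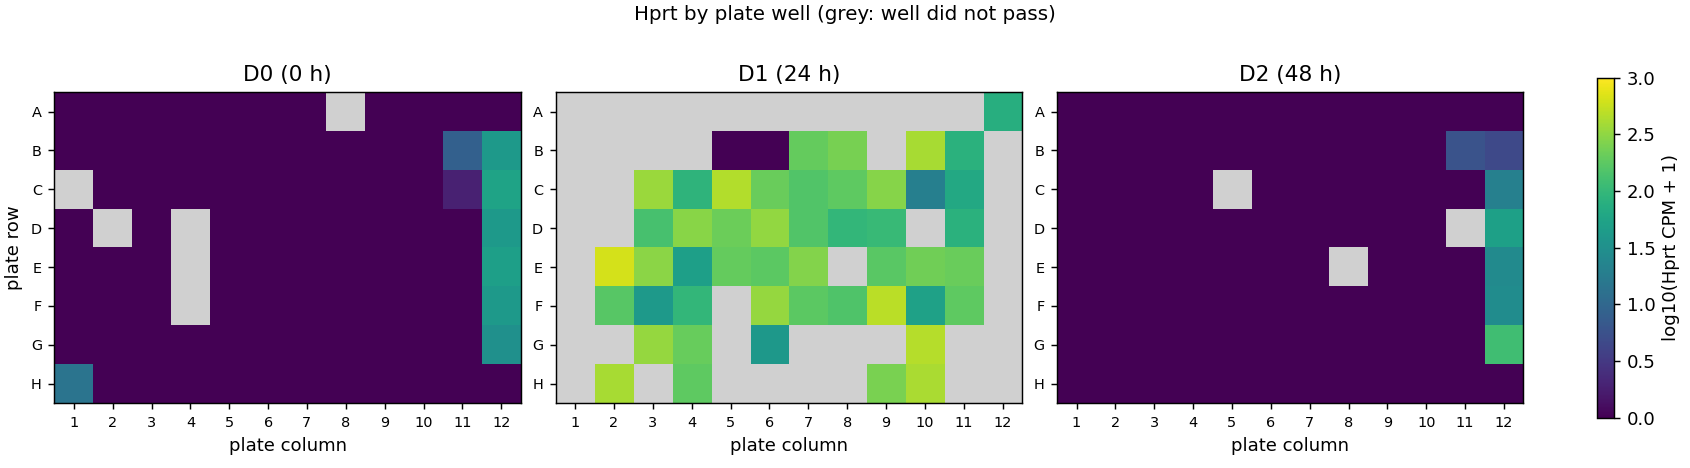
Plate maps of Hprt as log10(CPM + 1), rows A to H by columns 1 to 12, for D0, D1 and D2, with wells that did not pass in grey. Values above 0 in D0 and D2 lie in column 12, rows B to G, with 2 D0 wells and 1 D2 well in column 11 and the D0 well H01, while in D1 all passing wells but B05 and B06 are above 0.

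The 2 D1 cells without an Hprt read were neighbours on the plate, B05 and B06, with 2184078 and 3758761 reads. The Ftl2 share was 63.98% in B05 and 66.2% in B06, within the range of D0 and D2, whereas the highest share in a D1 cell with an Hprt read was 3.31%. B05 had 1954 Y-linked reads (894.7 CPM) and B06 had none. Both cells read Paics, Gart and Impdh2.

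Differences between labels are given as the difference of log2(mean CPM + 10), in which a value of 1 is a 2-fold change and low genes are understated. They were made without a test, for genes read in 50% or more of the cells under 1 label or the other. In D1 over D0, 1 of 10 members passed 2-fold, Hprt at 4.05, and none was lower by that much. The background was 7.38% of 10494 genes higher and 16.7% lower, and the median over the members other than Hprt was 0.15 against -0.13 over all genes. In D2 over D0, where Hprt failed the detection limit, 0 of 9 members were higher and 1 was lower, Pfas at -3.01, with 6.86% of 8822 genes higher and 20.5% lower. Pfas was read in 97.8% of D0, 98% of D1 and 35.5% of D2 cells, so it met the detection limit only through the label where it was high, here and against D1, as Hprt did through D1. The median of these 9 was 0.61 against -0.16 over all genes. In D2 over D1, 0 of 10 were higher and 2 lower, Hprt at -4.10 and Pfas at -2.68, with 9.62% of 9855 genes higher and 9.52% lower. Each of D1 and D2 was set against the same D0 cells. Ppat came nearest to the limit without passing it, at -0.92 in D2 over D0.

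Summing the reads over cells and scaling the sums moved these differences. For D1 over D0 the split over all genes was 774 higher and 1754 lower with mean CPM, 790 and 1628 with summed reads, and 1045 and 1241 with TMM factors on the sums, which shift every ratio up by 0.21. For D2 over D0 it was 605 and 1808 with mean CPM, 789 and 1946 with summed reads, and 1249 and 1529 with TMM factors, a shift of 0.28. Median-of-ratios factors on the sums raised D2 over D0 by 0.23 and gave 1174 higher and 1601 lower. Under either set of factors Aprt, Adsl and Impdh2 joined Pfas past 2-fold in D2 over D0, and under TMM Impdh2 joined Hprt in D1 over D0. Members inside the 2-fold lines did not all keep their direction over the 15 alternatives. In D1 over D0, Aprt kept it in 14, Gart in 13 and Ppat in 12. In D2 over D0, Paics kept it in 12, Hprt, which failed the detection limit, in 13, and Gart, Adsl, Atic and Impdh1 in 14 each, the exception being differences of mean log2(CPM + 10). In D2 over D1, Gart and Adsl kept it in 14, Impdh2 in 13, Atic in 12 and Impdh1 in 10.

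**Figure D3:**
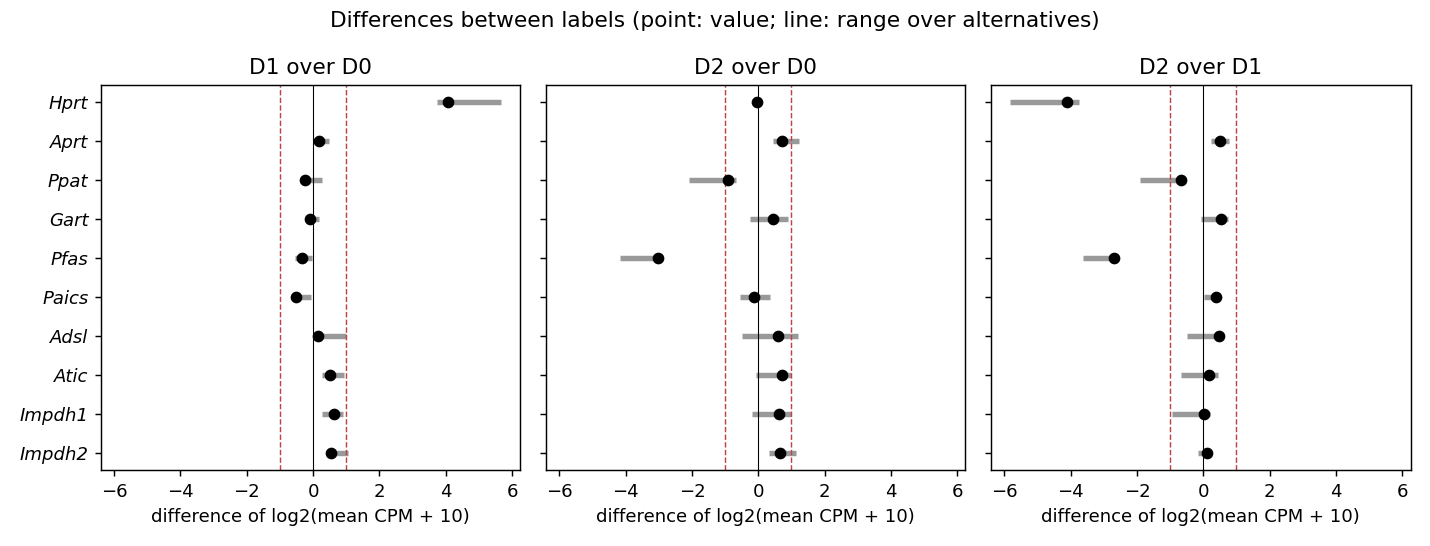
Points are the difference of log2(mean CPM + 10) of each member in D1 over D0, D2 over D0 and D2 over D1; grey lines span 15 alternatives and dashed lines mark 2-fold. Hprt lies at 4.05 in D1 over D0 and Pfas at -3.01 in D2 over D0, and the other points lie inside the dashed lines apart from Hprt and Pfas in D2 over D1.

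Aprt, the adenine salvage enzyme, was read in nearly every cell, in 89 of 90 D0, 49 of 50 D1 and 89 of 93 D2 cells. Its lowest, median and highest level was 0, 233.2 and 534.3 CPM in D0, 0, 260.0 and 650.3 CPM in D1, and 0, 364.3 and 1445 CPM in D2. The means were 245 ± 126, 280 ± 145 and 405 ± 272 CPM. The ranges overlapped between all labels, and the difference from D0 was 0.19 for D1 and 0.71 for D2. Among the D0 and D2 cells without an Hprt read, 80 of 81 and 82 of 86 read Aprt.

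The de novo route opens with Ppat, the amidotransferase that commits PRPP to purines. Its lowest, median and highest level was 6.72, 252.3 and 776.6 CPM in D0, 0, 207.7 and 590.9 CPM in D1, and 0, 32.5 and 1802 CPM in D2. The means were 261 ± 159, 220 ± 109 and 134 ± 236 CPM, with a read in 90 of 90, 49 of 50 and 68 of 93 cells. The D2 cells ranged most widely, 25 of 93 having no read and the highest cell lying above every D0 and D1 cell. Gart, which carries 3 of the following activities in a single protein, had means of 290 ± 144, 273 ± 171 and 396 ± 357 CPM and was read in 89, 49 and 88 cells.

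Pfas, which converts FGAR to FGAM with nitrogen from glutamine, differed most among the synthesis genes. It lies on chromosome 11, from 68985697 to 69008460 on the minus strand. Its lowest, median and highest level was 0, 336.7 and 826.8 CPM in D0, 0, 255.4 and 807.4 CPM in D1, and 0, 0 and 637.3 CPM in D2. It was read in 88 of 90 D0 cells and 49 of 50 D1 cells, but in 33 of 93 D2 cells, 35.5% (25.8 to 46.1). With equal depth the D2 share was 25.8%. The mean was 343 ± 182 CPM in D0, 271 ± 187 in D1 and 33.9 ± 108 in D2, 10.1 times lower in D2 than in D0 and 7.999 times lower than in D1. The upper quartile of the D2 cells was 2.10 CPM, yet the D2 range overlapped those of D0 and D1 at its upper end. Many genes were detected less often in D2. Of 2853 genes read in at least 95% of D0 cells, the median gene was read in 83.9% of D2 cells, and 212 genes (7.43%) had a D2 share at or below that of Pfas. Thinned to equal depth, 80 of 2108 such genes (3.80%) did.

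Paics, the carboxylase and synthetase of the middle steps, was the member with the highest CPM under every label. Its lowest, median and highest level was 0, 1013 and 2047 CPM in D0, 11.4, 741.2 and 1380 CPM in D1, and 0, 843.0 and 4755 CPM in D2. The means were 1035 ± 381, 725 ± 318 and 947 ± 762 CPM. Its difference in D1 over D0, -0.51, was the lowest of the synthesis genes between those labels, and the ranges overlapped. Adsl, the lyase that acts both in the ring synthesis and on the way from IMP to AMP, had means of 179 ± 135, 199 ± 145 and 278 ± 333 CPM and was read in 90, 49 and 76 cells. Atic, which closes the ring to IMP, had means of 133 ± 88.2, 195 ± 107 and 223 ± 220 CPM and was read in 86, 50 and 78 cells. Atic differed from D0 by 0.52 in D1 and 0.70 in D2.

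Summed over the 6 de novo genes the level was 2242 ± 560 CPM in D0, 1883 ± 742 in D1 and 2011 ± 1033 in D2. All 6 were read together in 86 of 90 D0 cells, 47 of 50 D1 cells and 21 of 93 D2 cells, and after thinning in 84, 46 and 15. The sum differed between labels by less than the spread between cells, and in D2 Pfas, Ppat, Adsl and Atic were each unread in 15 or more cells.

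**Figure D4:**
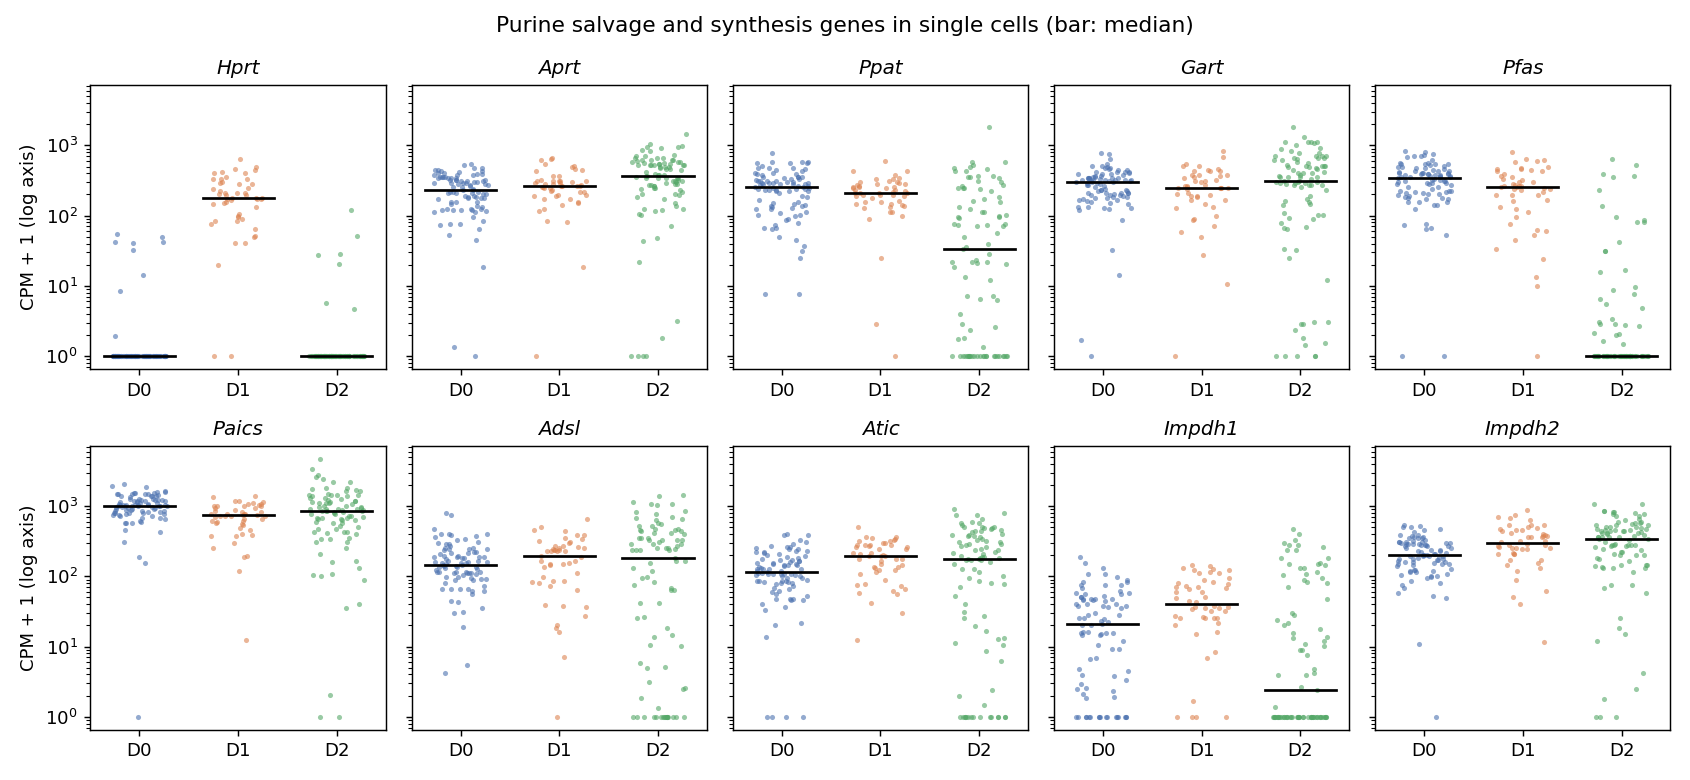
Each point is 1 cell, with the 10 members in CPM + 1 on a log axis for D0, D1 and D2; bars are medians. Hprt is above 0 mainly in D1, Pfas has a median of 0 only in D2, and Ppat and Impdh1 have D2 medians of 32.5 and 1.37 CPM with a wide spread.

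Impdh1 and Impdh2 encode inosine monophosphate dehydrogenase, the rate-limiting enzyme of guanine nucleotide synthesis. Impdh1 had a lowest, median and highest level of 0, 19.6 and 188.9 CPM in D0, 0, 39.3 and 142.2 CPM in D1, and 0, 1.37 and 465.5 CPM in D2. It was read in 73 of 90, 46 of 50 and 48 of 93 cells, and its means were 31.4 ± 36.7, 53.5 ± 41.2 and 54.1 ± 99.0 CPM. Impdh2 had means of 225 ± 119, 332 ± 190 and 359 ± 250.5 CPM and was read in 89, 50 and 90 cells. Per kilobase of principal transcript, Impdh2 lay above Impdh1 in 89 of 90 D0 cells, 50 of 50 D1 cells and 84 of 93 D2 cells. Against D0, Impdh2 differed by 0.54 in D1 and 0.65 in D2, and Impdh1 by 0.62 and 0.63.

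Levels of different genes were compared per kilobase of the longest principal transcript in GENCODE M21, with means over cells. In D0 the order was Paics (417 ± 154 CPM per kilobase), Aprt (288 ± 149), Impdh2 (121 ± 64.3), Gart (82.4 ± 40.98), Ppat (65.6 ± 39.8), Pfas (53.8 ± 28.5), Adsl (48.2 ± 36.4), Atic (46.8 ± 30.99), Impdh1 (12.1 ± 14.1) and Hprt (2.39 ± 8.46). In D1 Hprt came next, at 161 ± 109, after Aprt (330 ± 171), Paics (292 ± 128) and Impdh2 (178 ± 103). In D2 Aprt (477 ± 320) and Paics (381 ± 307) led, and Pfas (5.31 ± 16.99) and Hprt (2.08 ± 10.7) came last. Neighbours in each order differed by less than the larger of their SDs between cells, except Aprt over Impdh2 and Atic over Impdh1 in D0. With the length of all annotated exons in place of the principal transcript, Paics led Aprt under all 3 labels and Hprt came before Impdh2 in D1.

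Between cells of 1 label the members varied together most in D1. The sets were not the same, since Hprt was left out in D0 and both Hprt and Pfas in D2. The median Spearman correlation over the 45 pairs of members was 0.37 in D1 across 50 cells, against 0.06 over all pairs of detected genes. It was 0.15 against 0.03 over 36 pairs in D0 and 0.00 against 0.02 over 28 pairs in D2. The highest value was 0.64, between Adsl and Impdh2 in D1. In D1 the level of Hprt had a correlation of 0.55 with Pfas, 0.49 with Ppat, 0.46 with Atic and 0.45 with Paics, and of -0.07 with Aprt. With Adsl it was 0.31, with Gart 0.17, with Impdh2 0.06 and with Impdh1 -0.05. These points share library, depth and the total used for scaling, and the level of Hprt in D1 also had a correlation of 0.40 with the reads of the cell.

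Cells with and without an Hprt read were then compared within each label, again without a test. As far as the sources show, all cells of a label came from 1 culture. The wells with a read in D0 and D2 are largely those of column 12. Markers of primitive endoderm moved with the Hprt reads. Of its 6 markers, Pdgfra and Gata6 were each read in 5 of the 9 D0 cells with an Hprt read, against 1 and 2 of 81 without, and in 5 of the 7 D2 cells, against 0 and 1 of 86. Sox7 and Foxa2 had no read in any D0 or D2 cell. The summed level of the 6 ran from 0 to 97.2 CPM in the D0 cells with a read and from 0 to 56.6 CPM in those without, and from 0 to 93.2 CPM and 0 to 17.1 CPM in D2. In the 3 D0 cells with a read outside the 6 wells none of the 6 reached 50% of cells, with a summed level of at most 1.39 CPM. The 1 D2 cell with a read outside those wells, B11, read both Gata6 and Pdgfra, with a summed level of 6.38 CPM. In D2 the trophectoderm markers Tfap2c and Krt8 were also read in 50% or more of the 7 cells with a read, and in under 50% of the 86. The summed level of the 6 trophectoderm markers had a median of 14.7 CPM in the first and 0 in the second. Its highest value was 230.0 CPM in the first and 5888 CPM in the second. The part of these markers in the differences that follow was not tested. In D0, 9 cells with a read were set against 81 without. None of the other 9 members passed 2-fold in either direction, where 2.77% of 9750 genes did. Pfas was higher by 0.59, with means of 497 ± 187 and 326 ± 174 CPM. Impdh2 was lower by 0.63 (148 ± 56.6 against 234 ± 122 CPM) and Adsl by 0.57 (122 ± 83.6 against 185 ± 139 CPM). All 9 cells with a read lay within the range of the 81 for Pfas, from 241.1 to 752.1 CPM against 0 to 826.8. Aprt differed by -0.11, with 227 ± 124 and 246 ± 127 CPM. Without the 6 wells of column 12 there remained 3 cells with a read, and Aprt and Adsl then passed 2-fold, where 522 genes higher and 834 lower did of 10064.

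In D2, 7 cells with a read were set against 86 without, and 1 of 9 members passed 2-fold, Pfas at 1.63, where 27.2% of 6593 genes did. Pfas was read in 6 of the 7 and 27 of the 86 cells, so it met the detection limit only through the group where it was high. The Pfas means were 107 ± 235 and 27.9 ± 91.1 CPM, and the first rests on 637.3 CPM in well B12, the other 6 cells lying at or below 79.6 CPM. With a read defined as at least 10 CPM, which moves B12 and B11 to the other group, Pfas turned to -0.43. Atic was then the member past 2-fold, where 29.3% of 7346 genes passed. With a pseudocount of 1 CPM Pfas, Atic and Impdh1 passed, where 37.2% of genes did. Without the 6 wells of column 12 only B11 remained with a read. It had no Pfas read, so the Pfas difference of -1.92 was set by the pseudocount, and Pfas failed the detection limit. Of the other 8 members 5 passed (Aprt, Ppat, Gart, Paics and Impdh1). With that 1 cell on one side 49.5% of 6476 genes passed, 1168 higher and 2036 lower. With all 7 cells Aprt differed by 0.08, Paics by 0.02, Atic by -0.96 and Impdh2 by -0.78, the last 2 with overlapping ranges. The cells with a read had a median of 5429 genes after thinning, against 3898 in those without.

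In D1, 48 cells with a read were set against B05 and B06. The 2 cells also stood apart from the 48 in Ftl2 share, as given above, and in pluripotency genes. Their mean was 607.5 CPM for Nanog against 44.7, 1144 for Zfp42 against 329.6, and 1496 for Pou5f1 against 596.7. Tdgf1, Sox2 and Dppa5a went the other way. The part of this in the values that follow was not tested. In this comparison 2 of 9 members passed 2-fold, Ppat at 1.10 higher and Impdh2 at -1.28, where 36.7% of 11680 genes did with 2 cells on the other side. Ppat was at 1.83 CPM in B05 and 197.4 CPM in B06, against 225 ± 106 CPM in the 48 cells. Impdh2 was at 679.5 CPM in B05 and 871.0 CPM in B06, against a highest level of 747.8 CPM in the 48, so that B05 lay within their range and B06 above it. With B05 left out 3 members passed (Aprt, Pfas and Impdh2), and with B06 left out 5 did (Ppat, Adsl, Atic, Impdh1 and Impdh2), so Impdh2 alone passed in both. Each then had 1 cell without a read on the other side, and 49.2% of 10916 genes and 47.7% of 10906 genes passed. Paics was at 1059 CPM in B05 and 875.0 CPM in B06, inside the range of the others, 11.4 to 1380 CPM.

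**Figure D5:**
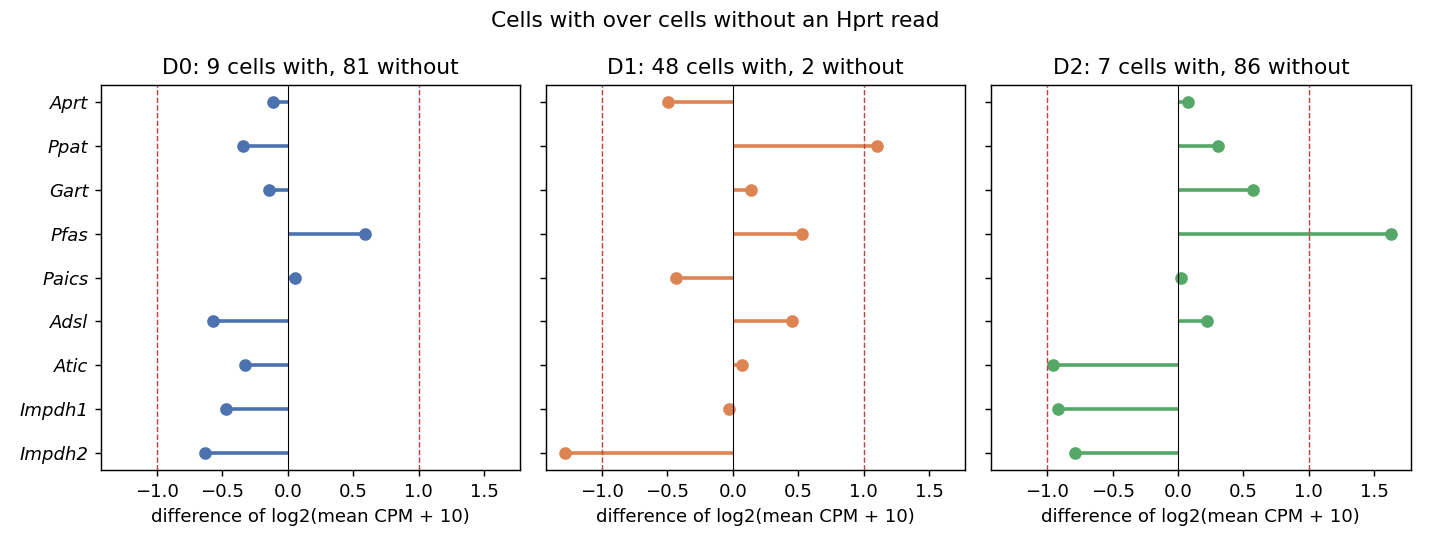
Points are the difference of log2(mean CPM + 10) between cells with and without an Hprt read for the 9 other members in D0 (9 against 81 cells), D1 (48 against 2) and D2 (7 against 86); dashed lines mark 2-fold. In D0 no point passes, in D1 Ppat (1.10) and Impdh2 (-1.28) pass, and in D2 Pfas (1.63) passes.

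Hprt lies on chromosome X, and the genes beside it in GENCODE M21 (GRCm38) were read under more than 1 label. The nearest detected gene before it, Phf6, a chromatin-associated PHD finger gene 31.2 kb away, had means of 32.5 ± 59.95, 44.02 ± 49.2 and 23.5 ± 60.3 CPM in D0, D1 and D2 and was read in 55.6%, 82% and 27.96% of cells. The nearest after it, Fam122b, 221.8 kb away, had means of 68.3 ± 67.5, 31.1 ± 40.9 and 32.1 ± 136 CPM. The protein-coding genes Gpc3, Gpc4, Mmgt1, Fhl1 and Htatsf1 farther out were each read in at least 40% of the D0 cells and 60% of the D1 cells. In D2 Gpc3 was read in 34.4%, Mmgt1 in 43.01%, Fhl1 in 16.1% and Htatsf1 in 63.4% of cells, and Gpc4 in 4.30%. These genes did not move one way. Gpc4 was at -1.54 in D2 over D0 and -2.18 in D2 over D1, while Mmgt1 was at 2.02 and 2.51 and Gpc3 at 1.12 and 1.98. Htatsf1 was at -1.44 in D1 over D0, and its difference in D2 over D1 was 1.58. The processed pseudogenes Rps2-ps13, Gm14586 and Gm14639 can take reads of their parent genes and are uncertain.

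The genes whose levels ran most like Hprt over all 233 cells, by Spearman correlation among 10511 genes, were Gc (0.87), Gm13370 (0.83), Gm42047 (0.83), Gm12261 (0.82) and Dok2 (0.81). The vitamin D-binding protein gene Gc averaged 64.3 CPM in D1, with a read in 1.11% of D0 cells and in no D2 cell. The median correlation over all genes was 0.16. Within the 50 D1 cells they were Pdk3 (0.71), Ptges3 (0.68), Gm20939 (0.66), Dkc1 (0.66) and Amd1 (0.64), with a median over 9810 genes of 0.10. Members ranked lower over all cells, with Pfas at 0.31 as the highest.

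The other genes of the pathway were counted in the same way. Of 8 salvage genes other than Hprt, 4 were more than 2-fold higher in D1 over D0 and none lower, where 7.38% of all genes were higher and 16.7% lower. These were Pnp (2.39), the purine nucleoside phosphorylase that frees bases for Hprt, its neighbour Pnp2 (1.75), adenosine kinase Adk (1.16) and Mtap (1.03), which releases adenine for Aprt. With each cell thinned to 200000 reads Mtap was at 0.99 and no longer past 2-fold, which leaves 3 of 8. Pnp and Pnp2 are near copies with overlapping annotation, so their split is uncertain. Pnp2, read in 17 of 90 D0 cells and 39 of 50 D1 cells, met the detection limit only through D1, where it was high. Of 6 compared in D2 over D0, 2 were higher, where 6.86% of all genes were, Adk at 2.21 and Pnp at 1.12. Adk went from 23.4 ± 28.3 CPM in D0 to 64.5 ± 48.0 in D1 and 144 ± 247 in D2.

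The smaller lists that follow have the same background, 7.38% higher and 16.7% lower in D1 over D0 and 6.86% and 20.5% in D2 over D0. Of the 5 genes from IMP to AMP and GMP, 4 were compared and none passed in D1 over D0. In D2 over D0 Adss, the adenylosuccinate synthetase, was lower at -1.54, from 360 ± 205 to 117 ± 188 CPM. Of the PRPP synthetase group, none of 5 passed in D1 over D0, while in D2 over D0 Prps1 was higher (1.34) and Prpsap2, a synthetase-associated protein, lower (-1.75) among 4. Among cells without an Hprt read the Prps1 median was 340.5 CPM in D0 and 292.4 CPM in D2, where the highest was 8694 CPM. In the few cells with a read the medians were 467.4 and 716.9 CPM, and the highest D2 cell was at 15019 CPM. Among 10 nucleotide kinase and reductase genes, Guk1, the guanylate kinase, was higher (1.08) and Ak4, a mitochondrial adenylate kinase, lower (-3.11) in D1 over D0. The kinases Guk1 (1.72) and Nme1 (1.51) and the reductase subunit Rrm1 (1.20) were higher and Ak4 (-2.73) was lower in D2 over D0. In cells without an Hprt read the Rrm1 median was 327.0 CPM in D0 and 404.1 CPM in D2, where the highest was 11753 CPM. Nt5c, a nucleotidase, was 1 of 9 breakdown genes to pass in D1 over D0 (1.496), and Ampd2, an AMP deaminase, was 1 of 7 in D2 over D0 (1.34). Among cells without an Hprt read Ampd2 was read in 45 of 81 D0 cells and 36 of 86 D2 cells. Its medians there were 3.95 and 0 CPM, and the highest D2 cell was at 900.0 CPM. With a read it was found in 5 of 9 and 4 of 7 cells, and the highest D2 cell was at 1206 CPM.

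The folate and one-carbon genes supply formyl groups for Gart and Atic and glycine for Gart. In D1 over D0, 0 of 13 were higher and 1 lower, Aldh1l1 (-1.86), where 7.38% and 16.7% of all genes were. Of the same 13 in D2 over D0, 4 were higher, the serine synthesis genes Phgdh (2.41), Psat1 (2.18) and Psph (1.32) and the mitochondrial serine hydroxymethyltransferase Shmt2 (1.25), and 2 were lower, Amt (-1.90) and Aldh1l1 (-1.67), where 6.86% of all genes were higher and 20.5% lower. Psat1 reached 1874 CPM in D2 from 405.4 CPM in D0. Among 5 nucleoside and base transporters compared in D1 over D0, Slc28a1 was higher (1.03) and Slc29a3 lower (-1.08), and in D2 over D0 Slc28a1 was higher (1.61) among 3.

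In the pyrimidine list, 1 of 11 was higher and 1 lower in D1 over D0, Umps (1.16) and Cad (-1.94), the latter holding the first activities of that pathway. These counts are near the shares over all genes, 7.38% higher and 16.7% lower. In D2 over D0 none of 11 was higher and Cad (-1.75) and Tk2 (-1.42) were lower. Of Myc, Mycn, Max and Atf4, which could be compared in D1 over D0, Myc (2.67) and Mycn (1.37) were higher, Myc from 2.72 ± 7.67 CPM in D0 to 70.8 ± 75.7 CPM in D1. Myc was read in 16 of 90 D0 cells and 47 of 50 D1 cells, so it met the detection limit only through D1, where it was high. None of 3 compared in D2 over D0 passed. Of all list genes past 2-fold, marker lists included and members left out, 8 of 27 in D1 over D0 met the detection limit only through the label where they were high, namely Aldh1l1, Ddx3y, Eif2s3y, Krt8, Myc, Pnp2, Slc29a3 and Tfap2c, as did 6 of 24 in D2 over D0, namely Ak4, Aldh1l1, Amt, Cad, Prpsap2 and Tk2.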

How the data were processed

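Single-cell RNA libraries of 288 wells were used, 96 for each label. Reads of 75 bases were aligned with HISAT2 to GRCm38, per the submitters' processing notes, and the authors deposited the counts per gene as whole numbers, not normalized. The counter and annotation are not given in the sources used here. Most non-zero counts were even, with a median of 22.2%, 19.6% and 16.0% odd in D0, D1 and D2. The sample descriptions name a normalized table, but the values are raw counts.

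Members and gene lists were chosen with earlier results of these data known. Counts were divided by the reads on genes of the cell to give CPM. Named genes are the members, up to 3 rises and 3 falls past 2-fold in each other list, the 5 genes most like Hprt and its neighbours, with all Y-linked and ferritin genes. Mtap and Shmt2 were added after their values were seen. Cells were also thinned to 200000 reads. With 1 culture per label as far as the sources show, there was no test, and intervals cover counting error only. Levels per kilobase used GENCODE M21 principal transcripts. The contrast was tested on simulated data. TMM factors came from edgeR 4.0.16, and other values from Python 3.11.15, numpy 2.4.6, pandas 2.3.3 and scipy 1.17.1. Alternatives covered cell filters, scaling, pseudocounts, thinning, plate regions and the limit for a read.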

Additional observations from a re-analysis of the deposited data

Results flagged for a closer look

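Hprt reads were also present in D1 wells that were left out of every comparison. Of the 46 D1 wells that failed the filter, 11 had an Hprt read, 50 reads in all, or 139.8 CPM of their 357724 summed reads, where the limit that a count of 0 allows would be 8.39 CPM, or 16.8 CPM if reads come in pairs, since the counts of all 11 wells were even. The 6 failing D0 wells and the 3 failing D2 wells had no Hprt read in 114562 and 1459044 reads, which allows up to 26.2 and 2.06 CPM, or 52.4 and 4.11 CPM if reads come in pairs. The value is drawn out because it comes from wells outside the main measurement. Most of those D1 wells were shallow, with a median of 1436.5 reads.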

How the results depend on the processing

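No paired analysis was possible because each label was 1 culture as far as the sources show and its cells carry no replicate number. The log2 ratio of mean Hprt CPM in D1 over D0 was 6.07 and stayed above 5 in every setting that gave one, at 6.22 with more than 500000 reads and 3000 genes, 9.46 in plate columns 1 to 6, 5.15 in columns 7 to 12, 10.4 in inner wells, 6.48 with reads summed over cells, 6.69 with TMM and 6.58 with median-of-ratios factors on those sums. Without wells B to G of column 12, a setting chosen after seeing the data, it was 9.66. Without the cells out of keeping with their label, D0 had no Hprt read and no ratio was given. The share of D1 cells with a read was 96% with at least 5 reads, at least 10 CPM or thinned, and 95.5% without columns 11 and 12, a setting also chosen after seeing the data.

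For members past 2-fold, D1 over D0 gave 2 in place of 1 with TMM factors, adding Impdh2. D2 over D0 gave 4 in place of 1 with TMM and with median-of-ratios factors, adding Aprt, Adsl and Impdh2, and 2 in columns 7 to 12 and with differences of mean log2(CPM + 10), adding Ppat. D2 over D1 gave 3 in place of 2 with summed reads and with differences of mean log2(CPM + 10), adding Ppat. The measure of mean log2(CPM + 10) gave 166 higher and 3619 lower genes in D2 over D0. In D1 cells with over without an Hprt read, 5 members passed in place of 2 when B06 was left out. In D2 the Pfas difference reversed, to -0.43 with a read set at 10 CPM or more and to -1.92 without wells B to G of column 12, where the 1 cell left with a read had no Pfas read and Pfas failed the detection limit. With a read set at 10 CPM or more 1 member passed there, Atic, where 29.3% of genes did, and without those wells 5 of 8 did, where 49.5% of genes did. Among single members between labels, 124 alternative values stayed within counting error and 326 moved. Hprt and Pfas kept their direction in all 15 alternatives wherever they passed 2-fold. The lists' genes were recomputed only with thinned reads, where Mtap in D1 over D0 was the 1 call lost of 27, and none was lost of 24 in D2 over D0 or of 23 in D2 over D1. Thinning to 200000 reads left the members past 2-fold as they were in each comparison.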

Other observations

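The pluripotency genes differed in both directions between the same cells. In D1 over D0, Utf1 (2.88) and Tdgf1 (1.10) were more than 2-fold higher, and Nanog (-2.69), Esrrb (-1.94) and Zfp42 (-1.28) were lower among 8 compared, where 7.38% of all genes were higher and 16.7% lower. Nanog had a mean of 489 ± 228 CPM in D0, 67.2 ± 139 in D1 and 268 ± 391 in D2. In D2 over D0, Utf1 (2.32), Pou5f1 (1.58) and Dppa5a (1.35) were higher and Sox2 (-1.34) was lower, where 6.86% of all genes were higher and 20.5% lower. Pou5f1 had a mean of 502 ± 184 CPM in D0, 633 ± 323 in D1 and 1524 ± 559 in D2. Of the trophectoderm markers compared in D1 over D0, Tfap2c was at -1.23 and Krt8 at -1.20, and both met the detection limit only through D0, where they were high.

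Among the Y-linked genes, Eif2s3y had a mean of 10.1 ± 67.4 CPM in D0, 141 ± 110 in D1 and 3.44 ± 31.7 in D2, and Ddx3y 8.71 ± 67.4, 109 ± 118 and 1.68 ± 14.9 CPM. Uty had means of 3.77, 17.3 and 0.0856 CPM and Kdm5d of 0.264, 1.82 and 0.00827 CPM. Of their X-linked copies, Kdm5c (-1.08) and Kdm6a (-1.41) were lower in D1 over D0, and Ddx3x (-1.74) in D2 over D0. Ftl1 had means of 390 ± 139, 1787 ± 764 and 613 ± 321 CPM and Ftl2 of 664 ± 247, 36.8 ± 139 and 1136 ± 605 CPM. No explanation was tested for these values.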
